A study of Mus musculus with 24 samples.

Results

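The genes described here are 32 genes of mitochondrial fatty acid oxidation and of ketone body metabolism, out of 37041 genes in the tables. They were taken by gene symbol from a list of the pathway's genes, which applies no cut on measured values but was drawn up with earlier results of these data known, and all 32 were found. Polyadenylated RNA was sequenced from C2C12 cells, mouse muscle precursors grown as a line that can fuse into myotubes, and from brown adipose tissue of mouse neonates. C2C12 control cells and C2C12 cells made to express NFIA (nuclear factor I A, a DNA-binding transcription factor) were collected on day 0 or day 7, the latter also following 4 h of 10 µM forskolin. Forskolin activates adenylyl cyclase and so raises cAMP. The tissue came from wild-type neonates and from neonates labelled NFIA-KO. There are 8 groups of 3 libraries, 24 in all. The labels do not give the vector or promoter that expressed NFIA, the number of cell clones, the differentiation medium, the age in days, or whether tissue was pooled. They do not say that libraries came from separate cultures or animals either, so p-values measure only the spread between these libraries, which may be technical. In C2C12 groups, the library whose title has no number is called replicate 1.

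Fatty acids enter the mitochondrial matrix as carnitine esters, made by CPT1 on the outer membrane and turned back into acyl-CoA by CPT2 inside. Each turn of beta-oxidation then uses an acyl-CoA dehydrogenase, an enoyl-CoA hydratase, a 3-hydroxyacyl-CoA dehydrogenase and a thiolase to release acetyl-CoA, and the dehydrogenases pass electrons through ETF and ETF dehydrogenase to the respiratory chain. Brown fat burns fatty acids this way to make heat. Ketone bodies made in the liver are turned back into acetyl-CoA in other tissues by BDH1, OXCT1 and ACAT1.

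Values are FPKM, a fragment count divided by transcript length and by the library's mapped fragments. Differences are log2 fold changes of FPKM + 1 ± SE, which understate changes of genes with low FPKM. They were tested with limma, a linear model fitted to all tested genes at once, and a gene was called higher or lower at a Benjamini-Hochberg adjusted p under 0.05. All adjusted p-values below are of this kind. No read totals came with the tables used here, so depth and counting error are unknown. No member was listed at 0 in any library. The RNA came from whole cultures or whole tissue, so fewer cells of a type and less RNA per cell cannot be told apart.

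Nfia read 0.660 ± 0.465 FPKM in control cells at day 0 (SD, n = 3) and 1269 ± 15.6 in NFIA cells, and 1.33 ± 0.785 against 3343 ± 212 at day 7. In tissue it read 24.3, 32.8 and 32.6 in the wild-type libraries and 44.6, 40.1 and 39.4 in the libraries labelled NFIA-KO. All labelled NFIA-KO libraries were therefore above all wild-type ones, and the gene's own level does not show the loss that the label names. A value for the whole gene does not tell which exons were read. Ucp1, the brown fat uncoupling protein, read 4073 to 7240 FPKM in wild-type tissue and 1445 to 1674 in the libraries labelled NFIA-KO. Summed over 15 skeletal muscle contractile markers, wild-type tissue read 83.7 to 190 FPKM and the libraries labelled NFIA-KO 378 to 2375.

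Promoters of 25 of the 32 members were matched by symbol in RefSeq (GRCm38.p6), and Acad9, Acaa2, Decr1, Cpt1b, Crat, Acot13 and Acat1 had no entry. The letters AGGTCA, the half-site read by many nuclear receptors such as the PPARs, were searched on both strands in the 250 bases before each start. They occurred in 4 of the 25 members, a share close to the 14.0% of all 32851 promoters of that length. The 4 sequences shown are those of all members with a match. Each reads 5′ to 3′ in the direction of the gene, with the half-site or its reverse complement TGACCT in capitals.
Acadm (chr3:153944644-153944893, minus strand): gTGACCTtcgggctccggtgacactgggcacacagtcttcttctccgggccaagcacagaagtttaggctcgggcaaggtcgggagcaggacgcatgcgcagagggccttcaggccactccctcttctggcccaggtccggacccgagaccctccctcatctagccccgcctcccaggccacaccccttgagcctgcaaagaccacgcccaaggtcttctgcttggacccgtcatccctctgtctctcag
Acadvl (chr11:70015429-70015678, minus strand): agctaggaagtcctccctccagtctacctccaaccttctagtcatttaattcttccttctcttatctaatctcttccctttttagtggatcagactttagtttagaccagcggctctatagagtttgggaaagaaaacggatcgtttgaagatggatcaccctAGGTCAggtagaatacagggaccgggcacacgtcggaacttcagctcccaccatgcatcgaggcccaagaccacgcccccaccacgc
Echs1 (chr7:140116422-140116671, minus strand): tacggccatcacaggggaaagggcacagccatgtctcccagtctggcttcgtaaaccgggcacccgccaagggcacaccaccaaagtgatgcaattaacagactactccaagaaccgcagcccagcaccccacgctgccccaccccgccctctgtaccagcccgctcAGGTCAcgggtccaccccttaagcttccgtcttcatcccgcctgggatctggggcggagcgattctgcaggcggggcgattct
Cpt1a (chr19:3323051-3323300, plus strand): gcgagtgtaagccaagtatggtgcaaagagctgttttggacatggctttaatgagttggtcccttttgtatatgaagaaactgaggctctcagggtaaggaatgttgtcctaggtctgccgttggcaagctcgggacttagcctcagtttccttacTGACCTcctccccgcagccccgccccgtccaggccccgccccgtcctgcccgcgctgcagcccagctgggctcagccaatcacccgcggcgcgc
The half-site began 249 bases before the start in Acadm and 94 in Cpt1a, on the opposite strand in both. It began 87 bases before the start in Acadvl and 83 in Echs1, on the gene's strand. The direct repeat of 2 half-sites with 1 base between them, the element TCAAGGTCA read by oestrogen-related receptors, the full palindrome of NFI proteins and the cAMP response element TGACGTCA were found in none of the 25 windows, and in 0.0335%, 0.387%, 0.0365% and 1.55% of all promoters. AGGTCA overlaps the first pair of these elements. The NRF1 palindrome occurred in Acad12 and Etfdh and in 0.782% of all promoters. A match is a run of letters and not a measured binding site.

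At day 7 the members stood higher in NFIA cells than in control cells across every role. Limma called 27 of the 32 higher and 0 lower (28 and 0 at an unadjusted p under 0.05), with 55.5% of all 14351 tested genes called, 26.1% higher and 29.4% lower. The median log2 fold change was 0.81 over the members and -0.03 over all tested genes. Summed over the members, FPKM averaged 1370 in control cells and 3227 in NFIA cells. The 5 members without a call were Acad10 (0.07 ± 0.12), Acad12 (-0.09 ± 0.10), Hadha (0.29 ± 0.15), Eci2 (0.18 ± 0.08) and Cpt1b (-0.08 ± 0.29). At the same time the summed level of 6 adipocyte markers was 22249 to 24424 FPKM in NFIA cells against 1.57 to 6.85 in control cells, and that of the 15 contractile markers 3272 to 4497 against 29873 to 30941. None of the 15 contractile markers was at 0 in all libraries of either group, and 1 of the 6 adipocyte markers, Lep, was listed at 0 in all control libraries. The part of these markers' change in the members' difference was not tested.

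**Figure D1:**
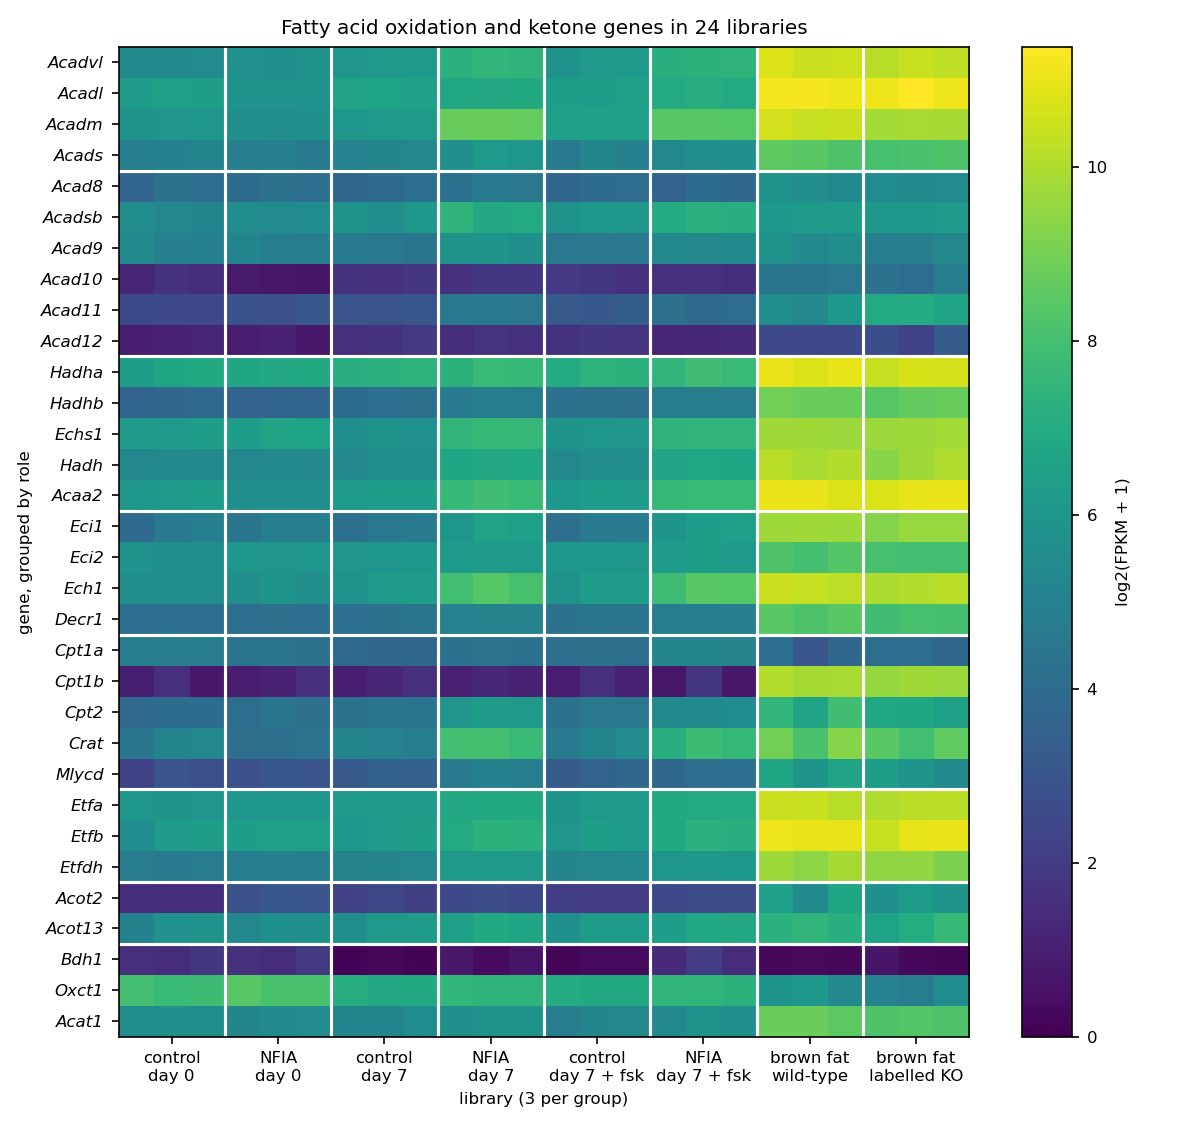
Level of each of the 32 members (rows, grouped by role) as log2(FPKM + 1) in each of the 24 libraries (columns, 3 per group). Most rows are brighter in the day 7 NFIA groups than in the control groups and brightest in brown fat; Cpt1b is dark in all C2C12 libraries and bright in tissue, while Oxct1 is brighter in C2C12 libraries than in tissue.

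The straight-chain acyl-CoA dehydrogenases, which make the first double bond on chains of different length, were all called higher at day 7. Acadm, the medium-chain enzyme, read 63.6, 67.8 and 68.3 FPKM in the control libraries and 432, 427 and 414 in the NFIA libraries. Its groups were far apart, with libraries of each group close together (2.65 ± 0.06; adjusted p = 2.6e-14). The tables place Acadm at mm9 chr3:153585321-153607596 and list no overlapping gene. Acadvl, the very-long-chain enzyme, was higher by 1.32 ± 0.09 and Acads, the short-chain enzyme, by 0.82 ± 0.15. Acadl, the long-chain enzyme, was higher by only 0.32 ± 0.07, from 93.4 ± 2.70 to 117 ± 3.03 FPKM.

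The 6 further members of the acyl-CoA dehydrogenase family split. Acad11, which acts on very long or hydroxylated chains, read 6.89, 6.57 and 7.30 FPKM in control and 23.7, 23.2 and 21.7 in NFIA libraries. The NFIA libraries were all above the control libraries (1.59 ± 0.10; adjusted p = 1.3e-09). Acadsb, which breaks down isoleucine, was higher by 1.25 ± 0.15, Acad9, needed to assemble respiratory complex I, by 1.24 ± 0.11, and Acad8, of valine breakdown, by 0.51 ± 0.15. Acad10 and Acad12, neighbouring paralogs on chromosome 5, lay between 1.82 and 2.74 FPKM in all 6 libraries, and their reads could be split between them. The locus listed for Acadsb spans 41 other genes, so its value is uncertain.

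Of the enzymes that complete each turn, Echs1, the short-chain enoyl-CoA hydratase, differed most. It read 47.1, 54.6 and 52.9 FPKM in control and 174, 195 and 191 in NFIA libraries. The groups did not overlap (1.84 ± 0.09; adjusted p = 1.1e-10). The thiolase Acaa2 was higher by 1.44 ± 0.10 and the hydroxyacyl-CoA dehydrogenase Hadh by 1.24 ± 0.09. Hadhb, the beta subunit of the trifunctional protein, was called at 0.68 ± 0.07, while Hadha, its alpha subunit, read 153 ± 10.7 against 189 ± 26.9 FPKM and was not called (adjusted p = 0.11). With the replicate number as a term in the limma fit, Hadha was called (adjusted p = 0.0036). The 2 subunit genes lie head to head, 85 bases apart in the tables. The Hadha locus overlaps 2 other listed genes and the Hadhb locus 1. A test of the difference between these 2 genes was not run.

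Among the enzymes for unsaturated chains, Ech1, which moves double bonds of dienoyl-CoA, read 55.1, 72.5 and 76.2 FPKM in control and 242, 335 and 269 in NFIA libraries. Every NFIA library was above every control library (2.04 ± 0.18; adjusted p = 1.6e-07). The enoyl-CoA isomerase Eci1 was higher by 1.80 ± 0.25 and the dienoyl-CoA reductase Decr1 by 0.81 ± 0.07.

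The carnitine shuttle held the largest difference of all members. Crat, which moves acetyl groups between CoA and carnitine, read 35.01, 32.6 and 28.0 FPKM in control and 248, 262 and 211 in NFIA libraries. No library of one group came near the other (2.88 ± 0.22; adjusted p = 2.2e-08). The Crat locus (mm9 chr2:30247774-30271333) overlaps 2 other listed genes. Cpt2 was higher by 1.76 ± 0.11 and Mlycd, which removes the CPT1 inhibitor malonyl-CoA, by 1.47 ± 0.17. Cpt1a, the liver form of CPT1, read 13.7, 12.4 and 12.9 FPKM in control and 18.6, 19.0 and 18.6 in NFIA libraries (0.50 ± 0.06; adjusted p = 1.9e-06). Cpt1b, the muscle and brown fat form, read 0.920, 1.36 and 1.92 FPKM in control and 1.06, 1.51 and 1.16 in NFIA libraries, and these groups overlapped. Cpt1a lies at mm9 chr19:3323301-3385732, and Cpt1b at chr15:89246836-89261299, where 2 other genes overlap it. Cpt1b thus stayed near 1 FPKM in a myoblast line at day 7, whether or not NFIA was expressed.

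**Figure D2:**
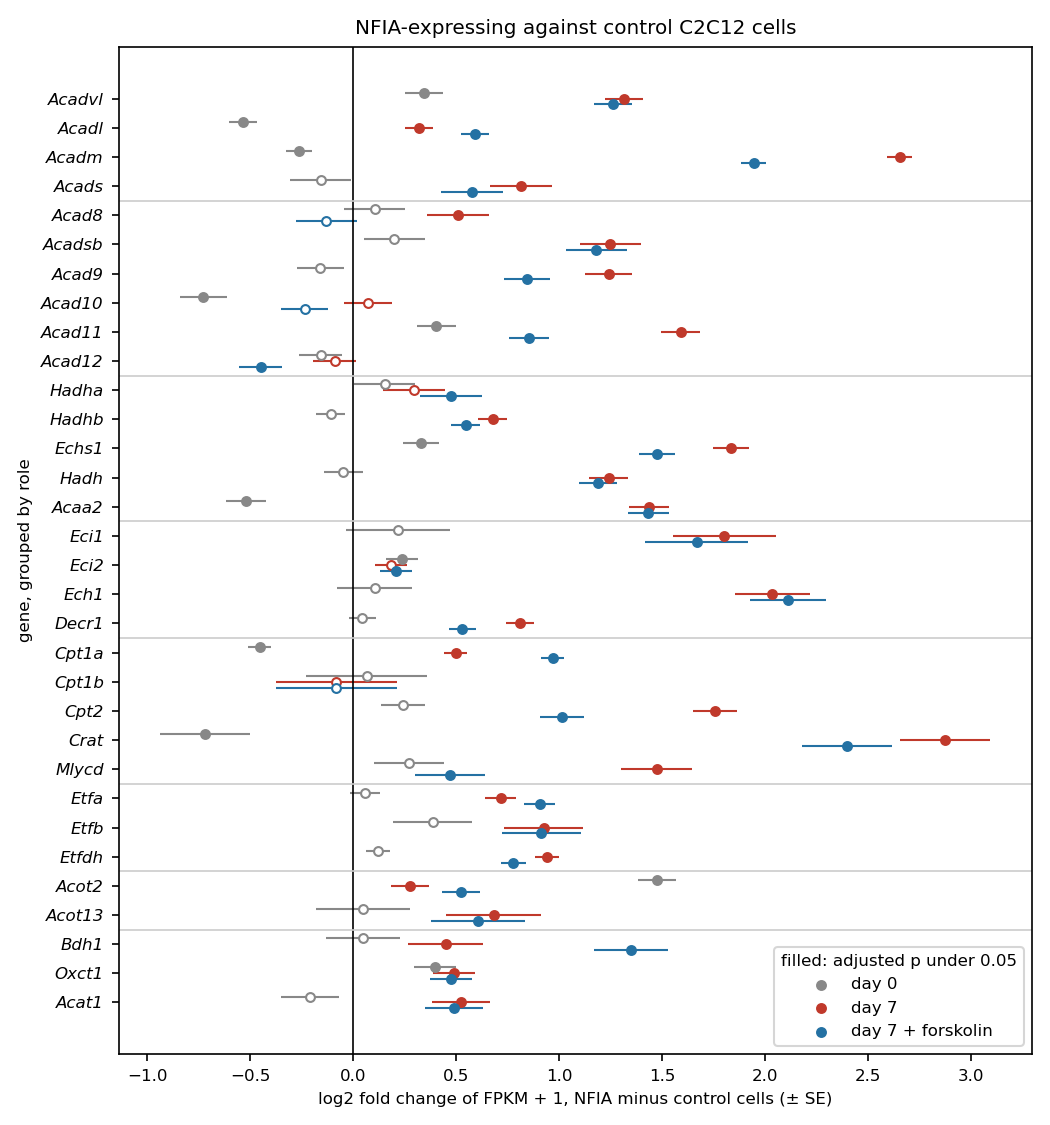
Log2 fold change of FPKM + 1 between NFIA and control cells (x axis, ± SE, 3 libraries per group) for each member (y axis, grouped by role) at day 0, day 7 and day 7 with forskolin; filled points passed an adjusted p under 0.05. Day 0 has filled points on both sides of 0, the highest being Acot2 at 1.48, while day 7 points reach 2.88 for Crat.

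The electron transfer genes rose together, each called. Etfdh, the membrane dehydrogenase, read 33.6, 35.1 and 37.4 FPKM in control and 67.3, 71.1 and 68.0 in NFIA libraries, without overlap (0.94 ± 0.06; adjusted p = 2.2e-09). Etfb and Etfa, the subunits of its electron donor, were higher by 0.93 ± 0.19 and 0.72 ± 0.07. The thioesterases, which free fatty acids from CoA, were called with smaller differences, Acot13 at 0.68 ± 0.23 and Acot2 at 0.28 ± 0.09. Acot2 has a near-identical neighbour, Acot1, so its reads are uncertain. Without control replicate 1 or NFIA replicate 2 both calls ended (adjusted p = 0.070 and 0.085 for Acot2, 0.099 and 0.081 for Acot13), and the Acot2 call also ended without control replicate 3 (adjusted p = 0.084).

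Ketone body genes were called higher at day 7, with Bdh1 under 1 FPKM in every library compared. Oxct1, which moves CoA onto acetoacetate and so commits it to use, read 134, 118 and 118 FPKM in control and 183, 169 and 168 in NFIA libraries, without overlap (0.49 ± 0.10; adjusted p = 7.0e-04). Acat1, the acetoacetyl-CoA thiolase, was higher by 0.52 ± 0.14. Bdh1, which interconverts the 2 main ketone bodies, read 0.0700, 0.170 and 0.0700 FPKM in control and 0.740, 0.270 and 0.540 in NFIA libraries, both low (0.45 ± 0.18; adjusted p = 0.047). The Bdh1 call ended in 5 of the 6 fits that left out 1 library of these groups, all but the one without NFIA replicate 2 (adjusted p = 0.063 to 0.17 in those 5). Bdh1 passed the filter only through libraries of other groups. A fit of only these groups tested 31 members, without Bdh1.

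Genes of the wider pathway moved in both directions at day 7. Of 12 genes of fatty acid uptake, activation and transport, 7 were called higher and 4 lower, among them the acyl-CoA synthetase Acsl1 (4.78), the fatty acid transporter Cd36 (3.57) and the synthetase Acsl6 (-3.55). Of 12 genes of malonyl-CoA turnover, thioesterases and mitochondrial helpers, 8 were higher and 3 lower, including Acaca (2.22) and Acacb (2.49), the acetyl-CoA carboxylases that make malonyl-CoA. Of 5 tested peroxisomal genes, 4 were higher and 1 lower. Of 9 tested regulators, 7 were higher and 1 lower, with Pparg at 4.06, Pdk4, a brake on glucose oxidation, at 2.41 and Ppara at 1.89.

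At day 0 the same genes showed no common direction. Of the 32, 6 were called higher and 6 lower in NFIA cells, with 21.2% of all tested genes called, 12.1% higher and 9.07% lower. Under quantile normalization 4 members were called higher and 7 lower, with 1617 of all 14351 tested genes called higher and 1553 lower. The member median was 0.06, against 0.02 over all tested genes. Acot2 differed most, at 1.80, 1.82 and 1.85 FPKM in control and 6.03, 7.53 and 7.07 in NFIA libraries, with no overlap (1.48 ± 0.09; adjusted p = 1.3e-08). Acot1 moved alongside at 1.65 ± 0.416 against 3.17 ± 0.399 FPKM. Acad11 (0.40 ± 0.10), Oxct1 (0.40 ± 0.10), Acadvl (0.35 ± 0.09), Echs1 (0.33 ± 0.09) and Eci2 (0.24 ± 0.08) were the other members called higher.

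The members called lower at day 0 included the gene with the largest difference at day 7. Crat read 21.3, 33.8 and 38.5 FPKM in control and 17.7, 17.1 and 19.3 in NFIA libraries at day 0. The control libraries were spread widely but all lay above the NFIA libraries (-0.72 ± 0.22; adjusted p = 0.029). Acadm read 57.3, 60.4 and 63.4 against 50.5, 48.2 and 51.5 (-0.26 ± 0.06; adjusted p = 0.0056). Cpt1a read 27.5, 26.1 and 26.1 against 19.8, 19.6 and 18.1 (-0.45 ± 0.06; adjusted p = 2.2e-05). Acad10 (-0.73 ± 0.12), Acadl (-0.54 ± 0.07) and Acaa2 (-0.52 ± 0.10) were the others. The Crat, Eci2 and Echs1 calls ended in 5, 5 and 4 of the 6 fits without 1 library (adjusted p up to 0.12, 0.13 and 0.076), and the 6 libraries of this comparison alone gave 6 calls. Acadvl lost its call without NFIA replicate 3 (adjusted p = 0.059), and Oxct1 lost it without NFIA replicate 1 (adjusted p = 0.054) or control replicate 2 (adjusted p = 0.054).

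Whether the difference between NFIA and control cells changed between the 2 days was tested with an interaction term. It was positive and called for 22 members and negative for 1, with 45.3% of all tested genes called, 19.8% positive and 25.5% negative. The member median was 0.84, against -0.06 over all tested genes. The terms of Crat (3.60 ± 0.31) and Acadm (2.92 ± 0.09) were the largest. Crat, Acadm, Acaa2, Cpt1a and Acadl were called lower in NFIA cells than in control cells at day 0 and higher at day 7. The exception was Acot2 (-1.20 ± 0.13), whose difference was larger at day 0.

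Followed over time, control cells raised part of the pathway and lowered Cpt1a and the ketone genes Bdh1 and Oxct1. From day 0 to day 7, 14 members were called higher and 5 lower in control cells, with 48.9% of all tested genes called, 24.9% higher and 23.9% lower. These counts were 10 and 6 under quantile normalization, which shifted the median of all genes from 0.02 to -0.11. That setting called 2983 of all 14351 tested genes higher and 4541 lower. Acadvl was higher by 0.63 ± 0.09, while Cpt1a was lower (-0.98 ± 0.06), as were Bdh1 (-1.50 ± 0.18), Oxct1 (-0.87 ± 0.10), Acad9 (-0.57 ± 0.11) and Echs1 (-0.50 ± 0.09). Contractile markers in these cells rose from a summed 42.6 to 51.5 FPKM at day 0 to 29873 to 30941 at day 7. In NFIA cells 26 members were called higher and 3 lower, with 56.9% of all tested genes called, 27.5% higher and 29.4% lower. Crat was higher by 3.66 ± 0.22, Acadm by 3.06 ± 0.06 and Ech1 by 2.42 ± 0.18. The 3 lower members in NFIA cells were Bdh1 (-1.10 ± 0.18), Oxct1 (-0.78 ± 0.10) and Acot2 (-0.41 ± 0.09). Oxct1 was thus lower at day 7 than at day 0 in both kinds of cell, from 206 to 248 FPKM to 118 to 134 in control and from 277 to 346 to 168 to 183 in NFIA libraries.

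**Figure D3:**
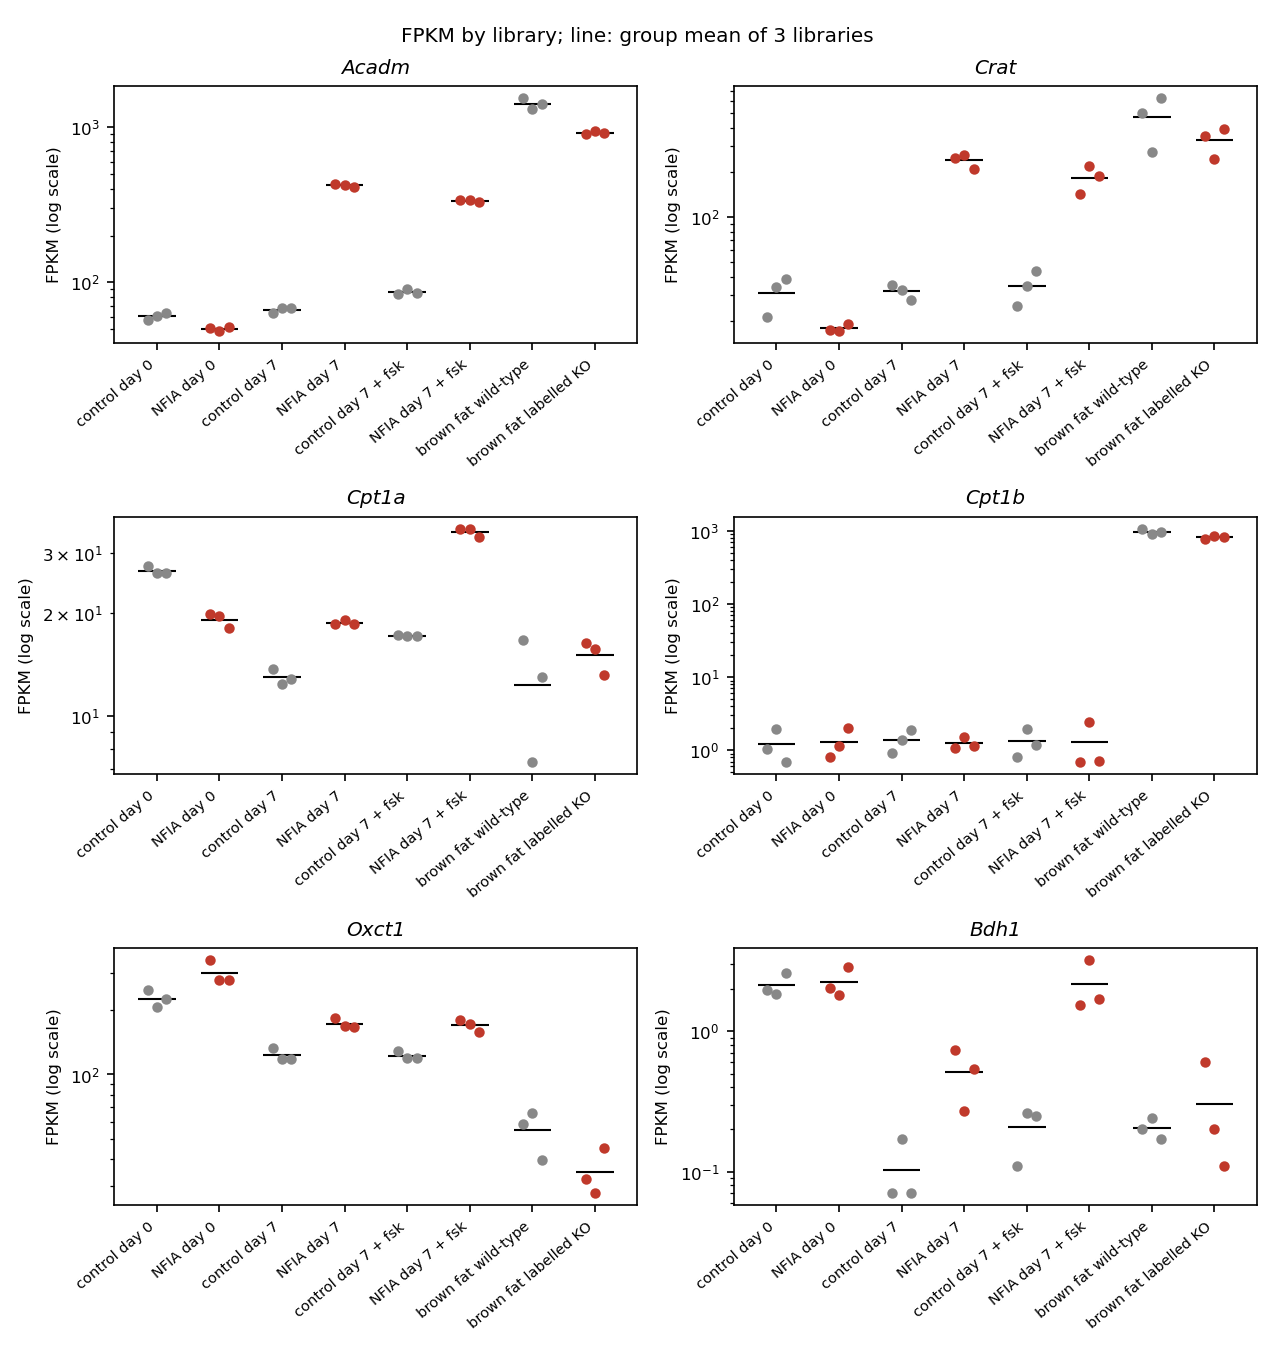
FPKM of 6 members (log scale) in each of the 24 libraries by group; each point is a library and each line the mean of 3. Acadm and Crat are high in day 7 NFIA cells, Cpt1a and Bdh1 are higher in NFIA cells with forskolin than without, Cpt1b is near 1 FPKM in all C2C12 groups and 770 to 1077 in brown fat, and Oxct1 is lower in brown fat than in any C2C12 group.

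Forskolin for 4 h raised 2 members in control cells, Cpt1a and Acadm, with 0 called lower (4 higher and 2 lower at an unadjusted p under 0.05). Of all tested genes 3.97% were called, 1.92% higher and 2.06% lower. With only 2 members called, their share in both directions together is not far above that background. Acadm rose to 83.7, 90.0 and 85.8 FPKM, above all untreated control libraries (0.37 ± 0.06; adjusted p = 0.0020). Cpt1a rose to 17.2, 17.1 and 17.2 FPKM (0.38 ± 0.06; adjusted p = 8.5e-04). The 6 libraries of this comparison alone gave 0 member calls in limma (4 at an unadjusted p under 0.05), and quantile normalization gave 1.

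In NFIA cells forskolin raised 2 members and lowered 9, with 32.6% of all tested genes called, 15.7% higher and 16.9% lower. Counted in both directions together, the share of members called is close to that background. Cpt1a rose from 18.6, 19.0 and 18.6 FPKM to 35.3, 35.2 and 33.3, its highest level in any group (0.85 ± 0.06; adjusted p = 2.6e-08). Bdh1 rose to 1.54, 3.23 and 1.70 FPKM, above every day 7 library without forskolin (1.03 ± 0.18; adjusted p = 4.5e-04). Mlycd fell from 26.0, 31.3 and 28.3 to 12.8, 16.1 and 17.1 FPKM, without overlap (-0.86 ± 0.17; adjusted p = 0.0013).

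Cpt2 fell from 59.7, 77.9 and 69.5 to 41.6, 41.3 and 45.7 FPKM after forskolin in NFIA cells (-0.67 ± 0.11; adjusted p = 2.1e-04). Acadm, which rose in control cells, fell from 432, 427 and 414 to 339, 339 and 331 FPKM (-0.33 ± 0.06; adjusted p = 6.8e-04). Both fell without any overlap between the libraries. Acad8, Acad11, Acad9, Acads, Acad12 and Decr1 were the other members called lower, at -0.65 to -0.18. Decr1 lost its call in each of the 6 fits without 1 library (adjusted p = 0.060 to 0.16), Acads and Acad12 in 4 each (adjusted p up to 0.16 and 0.13) and Acad9 without day 7 NFIA replicate 2 (adjusted p = 0.055). Without that library 7 members were called, 2 higher and 5 lower, and under quantile normalization 17, 2 higher and 15 lower. Summed over all genes, the FPKM of replicate 1 with forskolin was 941965 in NFIA and 834959 in control cells, against 1478370 to 1575522 and 1191079 to 1238931 in the other replicates. Contractile markers in control cells with forskolin summed to 18594 FPKM in replicate 1 and to 34716 and 33030 in replicates 2 and 3. Without replicate 1 of NFIA cells with forskolin, 8 members were called, 2 higher and 6 lower, and without that of control cells the 2 calls in control cells stayed at 2. The part of these sums in the forskolin responses was not tested.

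The forskolin response of 8 members differed between NFIA and control cells in the interaction test, 2 with positive and 6 with negative terms. Of all tested genes 20.1% were called, 10.5% with positive and 9.61% with negative terms. In both directions together, the share of members called is not far above that background. The terms of Mlycd (-1.004 ± 0.24), Cpt2 (-0.74 ± 0.15), Acad11 (-0.74 ± 0.13) and Acadm (-0.71 ± 0.09) were negative, as were those of Acad8 (-0.64 ± 0.21) and Decr1 (-0.28 ± 0.09). Those of Bdh1 (0.90 ± 0.25) and Cpt1a (0.47 ± 0.08) were positive. Without day 7 NFIA replicate 2 there were 5 calls, and the call of Bdh1 was among those that ended (adjusted p = 0.059). Acad8 and Decr1 lost theirs in 8 and 10 of the 12 fits without 1 library (adjusted p up to 0.11 and 0.12). Among regulators, the coactivator Ppargc1a rose by 3.54 and Pdk4 by 1.49 with forskolin in NFIA cells, while Ppara fell by 0.86, and the ketone and lactate carrier Slc16a1 rose by 2.92. Nfia itself rose to 9852 ± 608 FPKM with forskolin in NFIA cells, and its part in these responses was not tested.

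Under forskolin, NFIA and control cells differed in 29 members, 28 higher and 1 lower in NFIA cells, with 61.6% of all tested genes called, 28.7% higher and 32.9% lower. The member median was 0.81, against -0.04 over all tested genes. Crat (2.40 ± 0.22), Ech1 (2.11 ± 0.18) and Acadm (1.95 ± 0.06) stood highest, and Bdh1 was at 1.35 ± 0.18. Acad12 was the member called lower (-0.45 ± 0.10), and Acad8 (-0.13 ± 0.15), Acad10 (-0.24 ± 0.12) and Cpt1b (-0.08 ± 0.29) were not called. Hadha (0.48 ± 0.15), Mlycd (0.47 ± 0.17), Acot13 (0.61 ± 0.23) and Eci2 (0.21 ± 0.08) were called, but each lost its call without NFIA replicate 2 with forskolin or without control replicate 1 with forskolin. The adjusted p without these libraries was 0.061 and 0.062 for Hadha, 0.076 and 0.13 for Mlycd, 0.096 and 0.14 for Acot13, and 0.15 and 0.088 for Eci2. Mlycd and Acot13 also lost their calls without NFIA replicate 3 with forskolin (adjusted p = 0.099 and 0.11). Eci2 further lost its call without NFIA replicate 1 or control replicate 3 with forskolin (adjusted p = 0.055 and 0.061). Eci2 turned to -0.07 under quantile normalization. The NFIA and control groups compared with forskolin hold other libraries than those compared without it. All C2C12 libraries were fitted together, however, so the SEs and p-values of both comparisons rest on a shared estimate of each gene's spread. These comparisons are therefore not independent tests. The comparisons over time and those of forskolin within a kind of cell share the day 7 groups. The 12 numbered C2C12 libraries, whose headers carry the later date, gave 13 member calls at day 0, 27 at day 7 and 28 with forskolin when fitted alone. They gave 22 and 30 over time in control and NFIA cells, 2 and 11 for forskolin in control and NFIA cells, and 26 and 10 for the day and forskolin interactions. Of 13997 genes tested in that fit, 3997 were called at day 0, 9336 at day 7 and 10003 with forskolin. Over time 8420 and 9305 of these genes were called in control and NFIA cells.

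Brown adipose tissue held the pathway at much higher levels than the cells, though not for every member. The tissue and cell values are set side by side without a test. Summed over members, FPKM averaged 21591 in wild-type tissue against 3227 in day 7 NFIA cells. Per member, the day 7 NFIA mean was a median of 19.96% of the wild-type tissue mean, and the day 7 control mean 7.28%. The NFIA mean was under 10% of the tissue mean for 10 members, from 10 to 50% for 15, from 50 to 100% for 2 and above it for 5. Acadl was high in tissue, at 2344, 2408 and 2180 FPKM, and reached 5.06% of that in NFIA cells. Crat came to 51.3% and Acot13 to 65.8%. The 5 members above the tissue mean were Oxct1 (316%), Bdh1 (254%), Acadsb (189%), Cpt1a (152%) and Acad9 (111%). Bdh1 was low in both, at 0.517 FPKM in NFIA cells and 0.203 in tissue. The Acadsb value is uncertain because its listed locus spans 41 other genes.

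**Figure D4:**
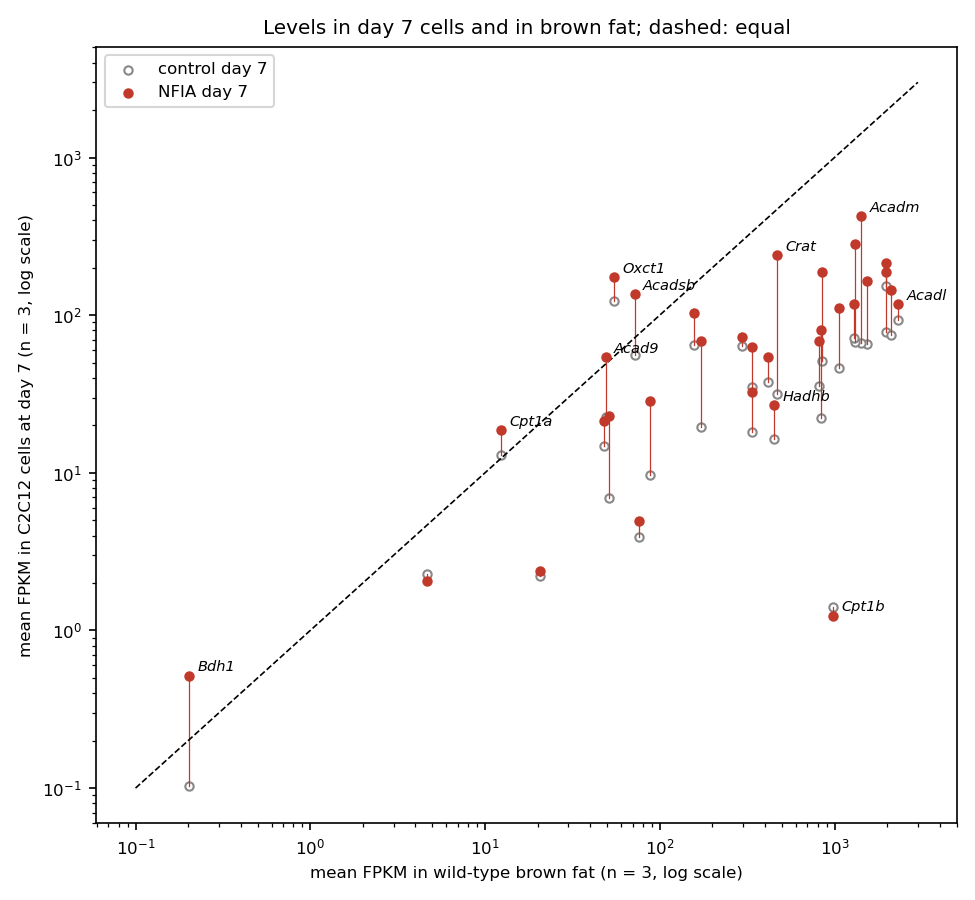
Mean FPKM of each member in day 7 C2C12 cells (y axis, log scale; open points control, filled points NFIA) against its mean in wild-type brown fat (x axis, log scale), n = 3 libraries each, with a dashed line at equal levels. Most members lie below the line, 5 NFIA points lie above it, and Cpt1b lies farthest below, at 0.126% of the tissue mean.

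CPT1 isoforms were opposite in cells and tissue. Cpt1b read 1077, 910 and 965 FPKM in wild-type tissue, where it made up 98.8% of the FPKM of the 2 isoforms, and Cpt1a read 16.7, 7.31 and 13.0. In the C2C12 groups Cpt1b never passed 2.44 FPKM. Of the ketone use genes, Oxct1 was lower in tissue than in the cells: it read 58.7, 66.1 and 39.8 FPKM in wild-type tissue and 118 FPKM or more in every C2C12 library. Acat1 was higher in tissue, at 437, 442 and 361 FPKM in the wild-type libraries, and its day 7 NFIA mean came to 13.2% of that level. Bdh1 read at most 0.600 FPKM in any tissue library and was not tested there.

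In tissue, 2 of the 31 tested members differed between the libraries labelled NFIA-KO and wild-type, 1 higher and 1 lower, with 3.59% of all 13618 tested genes called higher, 3.55% called lower and 7.14% in all. That share of members is close to the background. The member median was -0.23, against -0.02 over all tested genes, and 5 of 31 had a positive value. Acadm read 1554, 1316 and 1406 FPKM in wild-type libraries and 907, 952 and 914 in the libraries labelled NFIA-KO. All the latter were below all the former (-0.62 ± 0.11; adjusted p = 0.029). Acad11 read 47.9, 39.5 and 66.2 FPKM in wild-type and 124, 127 and 99.1 in the libraries labelled NFIA-KO, again without overlap (1.20 ± 0.21; adjusted p = 0.029). Its locus (mm9 chr9:103904874-104029976) overlaps 3 other listed genes, so its value is uncertain.

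Neither tissue call was stable. The Acadm call ended without any 1 library other than wild-type replicate 2 (adjusted p = 0.057 to 0.15), and the Acad11 call without wild-type replicate 1 (adjusted p = 0.13) or without replicate 1 or 2 of the libraries labelled NFIA-KO (adjusted p = 0.069 and 0.095). Of the 15 contractile markers 11 were tested in tissue, and 8 were called higher in the libraries labelled NFIA-KO and 0 lower. With the contractile level as a term in the fit, Acadm was at -0.56 ± 0.23 (adjusted p = 0.48) and Acad11 at 1.05 ± 0.44 (adjusted p = 0.48). Each SE was larger than without the term. That level, a mean of log2(FPKM + 1), was 1.70 to 2.51 in wild-type libraries and 3.12 to 5.20 in the libraries labelled NFIA-KO. The groups do not overlap in it, so this fit cannot separate contractile level from the label. Summed over 8 brown adipocyte markers, wild-type libraries read 11630 to 15991 FPKM and the libraries labelled NFIA-KO 6127 to 7645, with no marker at 0 in all libraries of a group. The 6 adipocyte markers summed to 2451 to 25338 FPKM in wild-type and 14901 to 18424 in the libraries labelled NFIA-KO. The low sum is that of wild-type replicate 3, where Fabp4, the adipocyte fatty acid binding protein, is listed at 0, against 23064 and 21230 FPKM in replicates 1 and 2. The part of these marker levels in the members' differences was not tested.

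The other tissue members had differences that did not pass. Acad9 was at -0.58 ± 0.16 (adjusted p = 0.065), Acat1 at -0.42 ± 0.12 (adjusted p = 0.073), Decr1 at -0.40 ± 0.12 (adjusted p = 0.091) and Hadha at -0.37 ± 0.13 (adjusted p = 0.13). Echs1 (0.00 ± 0.10), Acadl (0.02 ± 0.12) and Acaa2 (-0.04 ± 0.13) were near 0. Wild-type replicate 2 read low for several shuttle genes. Cpt2 read 180, 98.6 and 237 FPKM in the wild-type libraries and 112, 104 and 87.2 in the others, and Crat read 499, 274 and 634 against 351, 247 and 393. Both genes overlapped between the groups only through that library (-0.68 ± 0.30 for Cpt2 and -0.45 ± 0.32 for Crat). Outside the members, the carnitine carrier Slc25a20 (-0.87) and the synthetase Acsl5 (-0.87) were called lower and the synthetase Acsl3 (0.98) higher, 3 of 11 tested genes of uptake and activation. Slc16a1 (-1.64) was called lower, and Pdk4 (1.20) and the peroxisomal reductase Decr2 (1.12) higher.

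**Figure D5:**
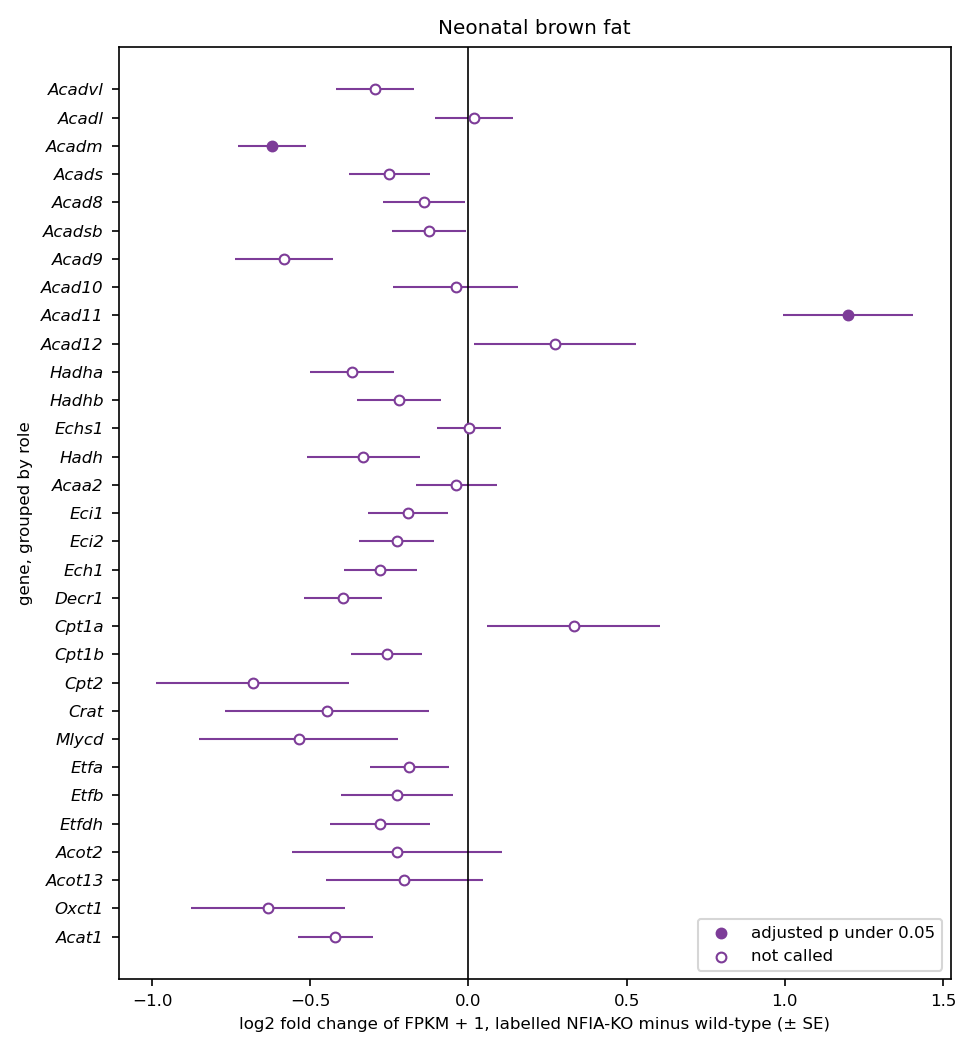
Log2 fold change of FPKM + 1 in brown fat, libraries labelled NFIA-KO minus wild-type (x axis, ± SE, n = 3 each), for the 31 tested members (y axis, grouped by role). Acad11 lies at 1.20 and Acadm at -0.62 as filled points, and most others lie between -0.7 and 0 without a call.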

How the data were processed

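RNA from 18 C2C12 and 6 tissue libraries was sequenced, prepared with the TruSeq Stranded mRNA kit per the labels' protocols. The authors deposited FPKM values, 1 table per library, for which the submitters' processing notes name TopHat, Cufflinks and mm9. Their versions and the annotation: not given in the sources used here. Each table has 37305 entries. Entries of 1 symbol at overlapping loci were added up (264 merged), leaving 37041 genes.

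On the log2(FPKM + 1) scale, limma 3.58.1 (R 4.3.3) gave two-sided moderated tests with a variance trend. The C2C12 and tissue libraries were fitted separately, and the spread of a gene was estimated over all groups of a fit. Tests covered the 14351 and 13618 genes that reached 1 FPKM in 3 or more libraries of a fit, and p-values were adjusted over all of them by the Benjamini-Hochberg method in each of 10 comparisons, at a threshold of 0.05. The procedure was tested on simulated data. The alternatives were quantile normalization, a pseudocount of 0.1, a fit without the trend, a fit of just the compared groups, median-of-ratios rescaling, a fit without the filter, a replicate block, just the C2C12 libraries numbered in their titles, likely failed zeros set to missing, contractile level as a term in tissue, and each library left out in turn. Column headers carry an earlier date for 12 libraries (unnumbered C2C12 and all tissue) and a later one for 12. The earlier ones hold 1 C2C12 library per group and so give no value of their own.

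The list of members, the pathway and marker lists and the tests were chosen with earlier results of these data known. All members may be named. Values per library are given for the member of each role with the largest difference between NFIA and control or labelled NFIA-KO and wild-type groups, for both CPT1 genes, and for a few other members chosen after their values were seen. Up to 3 called genes are named from each other pathway list. Promoter sequences are from RefSeq (GRCm38.p6), and no coordinates were converted between builds. Some results are not reported here.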

Additional observations from a re-analysis of the deposited data

Results flagged for a closer look

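The difference between NFIA and control cells changed from day 0 to day 7 for 23 members by limma's interaction test. Of all tested genes 45.3% were called, 19.8% with positive and 25.5% with negative terms. Terms are given as the log2 difference at day 7 minus that at day 0. The terms above 1.3 were Crat 3.60, Acadm 2.92, Acaa2 1.96, Ech1 1.93, Eci1 1.59, Cpt2 1.52, Echs1 1.51 and Acad9 1.40. A middle group had Hadh 1.29, Mlycd 1.20, Acad11 1.19, Acadsb 1.05, Acads 0.98, Acadvl 0.97 and Cpt1a 0.95. The remaining positive terms were Acadl 0.86, Etfdh 0.82, Acad10 0.80, Hadhb 0.79, Decr1 0.77, Acat1 0.74 and Etfa 0.66. Acot2 had the one negative term, -1.20. These terms follow from the same tests as the report and are no added support.

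The difference between NFIA and control cells changed with forskolin for 8 members, given as the log2 difference with forskolin minus that without. With 20.1% of all tested genes called (10.5% positive, 9.61% negative), the share of members called is not far above the background. The positive terms were Bdh1 0.90 and Cpt1a 0.47. The negative ones were Decr1 -0.28, Acad8 -0.64, Acadm -0.71, Acad11 -0.74, Cpt2 -0.74 and Mlycd -1.004.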

How the results depend on the processing

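Of 162 calls of a member in a comparison, 135 held in every fit that left out 1 library. Leaving out each library in turn gave 8 to 11 calls at day 0, 24 to 27 at day 7, 25 to 29 with forskolin, 17 to 22 and 27 to 29 over time in control and NFIA cells, 2 for forskolin in control cells, 7 to 10 in NFIA cells, 23 to 26 and 5 to 9 in the day and forskolin interactions, and 0 to 3 in tissue. Using only the groups compared gave 6 calls at day 0 and 0 for forskolin in control cells. At day 0 that fit called 1872 of 12787 tested genes. Quantile normalization gave 1 call for forskolin in control cells and 17 in NFIA cells, and turned Eci2 to -0.067 between NFIA and control cells with forskolin (adjusted p = 0.63). In tissue, limma without the filter and with the contractile term each gave 0 member calls (6 and 2 members at an unadjusted p under 0.05, against 9 in the main analysis). The causes were not tested. The numbers were not taken as pairs, since labels number only replicates 2 and 3 of the C2C12 groups and 36 of 45 same-number C2C12 pairs and 2 of 3 tissue pairs, not all, had deviations correlated above 0.1. As a hint from the data, 13 of 18 C2C12 and 4 of 6 tissue libraries correlated best with their own number. A replicate block gave 15, 29 and 29 calls at day 0, day 7 and with forskolin, 24 and 30 over time, 3 and 11 for forskolin in control and NFIA cells, 26 and 12 for the interactions and 1 in tissue. The block also raised calls over all 14351 genes tested in cells, from 3036 to 5159 at day 0. At day 7 these calls rose from 7962 to 9707, and with forskolin from 8845 to 10354. Over time they rose from 7013 to 9090 in control and from 8163 to 9784 in NFIA cells. Among members at day 7 the block added Hadha and Eci2 (adjusted p = 0.0036 and 0.033), and in tissue it ended the call of Acadm (adjusted p = 0.052). The depth is unknown, which limits what can be said of low genes such as Bdh1, Acad10 and Acad12.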
